A study of Mus musculus with 4 samples.

Results

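The cytosolic ribosomal protein genes were followed in stromal cells from pancreatic ductal adenocarcinomas that arise spontaneously in C57BL/6 mice, taken by flow sorting. The genes were chosen by symbol alone, as every Rpl, Rps, Rplp0, Rplp1, Rplp2 or Rpsa symbol of the deposited count table without the S6 kinase genes, which gave 84 of 22609 genes. Of these, 51 belong to the large subunit and 33 to the small subunit. Every sorted cell was positive for fibroblast activation protein (FAP), a protease on the surface of tumour stroma, and the FAP+ cells were then separated by CD34, a surface sialomucin that endothelial cells, haematopoietic progenitors and part of the stroma carry. RNA was sequenced from 2 FAP+ CD34+ libraries and from 2 FAP+ CD34- libraries. No allele, treatment or age is named in the labels for either. The titles call the libraries of a group biological replicates and the design text speaks of duplicate experiments. How many animals stood behind a library is not stated, so the p-values below measure only the spread between these libraries.

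Ribosomal proteins fold around the ribosomal RNAs, and the assembled large and small subunits join on the messenger RNA to translate it. Their messenger RNAs are abundant and mostly short, and they are the classical members of the 5′ terminal oligopyrimidine (TOP) class, whose transcripts begin with a C followed by a run of pyrimidines and whose translation is controlled by mTORC1 through LARP1. Ribosomal protein that finds no place in a subunit is degraded, so mRNA levels alone do not give the number of ribosomes.

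Because the pyrimidine tract is what the family's messages share, the sequence around the annotated start was read from RefSeq promoter entries on GRCm38.p6 for 63 of the 84 genes. Each window below holds 15 bases before the start and 15 bases from the start onward, 5′ to 3′ on the strand of the gene. Capitals mark a tract, searched on the strand of the gene only as a C followed by at least 4 bases that are each C or T, with its first base at the start or within 5 bases of it. Shown are the genes with the largest positive log2 fold changes, CD34+ over CD34-, that had an entry (Rps28, Rpl37a, Rplp2, Rps13 and Rps26), then those with the largest negative ones among genes with a mean of at least 5 CPM (Rps27l, Rpl7l1, Rpl4, Rps2 and Rps3), which leaves out Rpl34 with its few counts, and last Rpl15, whose tract at the start is the longest of the 63. The windows lie at chr17:33824548-33824577 (minus strand) for Rps28, chr1:72711245-72711274 (plus) for Rpl37a, chr7:141447636-141447665 (plus) for Rplp2, chr7:116334176-116334205 (minus) for Rps13 and chr10:128626492-128626521 (minus) for Rps26. Those of the other genes lie at chr9:66946071-66946100 (plus) for Rps27l, chr17:46782642-46782671 (minus) for Rpl7l1, chr9:64173372-64173401 (plus) for Rpl4, chr17:24720048-24720077 (plus) for Rps2, chr7:99483695-99483724 (minus) for Rps3 and chr14:18270972-18271001 (minus) for Rpl15.
Rps28: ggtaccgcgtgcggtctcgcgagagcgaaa
Rpl37a: ttccgctcgccggtctaaaaccgcgcatgc
Rplp2: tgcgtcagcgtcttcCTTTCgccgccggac
Rps13: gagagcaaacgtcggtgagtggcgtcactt
Rps26: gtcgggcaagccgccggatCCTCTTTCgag
Rps27l: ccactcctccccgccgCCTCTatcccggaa
Rpl7l1: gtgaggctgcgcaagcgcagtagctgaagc
Rpl4: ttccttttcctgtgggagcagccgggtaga
Rps2: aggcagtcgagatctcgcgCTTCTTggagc
Rps3: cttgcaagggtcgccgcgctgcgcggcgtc
Rpl15: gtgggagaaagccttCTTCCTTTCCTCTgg

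A tract began exactly at the annotated start in 12 of the 63 genes (19.0%), against 2.51% of all 32851 promoter entries. With the search widened to 5 bases either side it was found in 28 of the 63 (44.4%), against 18.3% of all entries. Where no tract was found, none began within 5 bases of the annotated start, and tracts beginning further out in the window were not counted. Rpl4, for example, holds such a run further before its start, left in lower case. Annotated starts can lie some bases from the start in use. Rps28 and Rpl37a, with the largest positive fold changes, had no tract in the window, and Rps27l, with the most negative, had one. The 27 tested genes with a tract had a median log2 fold change of 0.30 and the 31 tested genes without one a median of 0.32.

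Ribosomal protein genes took a smaller share of the reads in CD34- replicate 2 than in the other 3 libraries. They held 5.28% of the counts in CD34+ replicate 1 (Wilson 95% interval 5.27 to 5.29%) and 4.51% in CD34+ replicate 2 (4.50 to 4.52%), against 4.85% in CD34- replicate 1 (4.83 to 4.86%) and 3.25% in CD34- replicate 2 (3.24 to 3.26%). The groups overlapped, since CD34- replicate 1 lay between the CD34+ libraries. The mean share was 4.90 ± 0.541% in CD34+ cells and 4.05 ± 1.13% in CD34- cells (SD, n = 2 each), a log2 ratio of 0.27 that was smaller than the gap between the CD34- libraries. With 2 libraries against 2, an exact permutation test cannot go below p = 0.333. Without CD34- replicate 2 the log2 ratio was 0.02, and without CD34- replicate 1 it was 0.59. In bulk RNA, fewer cells of a kind and less of this RNA per cell cannot be told apart. The intervals cover counting error only, since copies from linear amplification are not independent molecules.

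**Figure D1:**
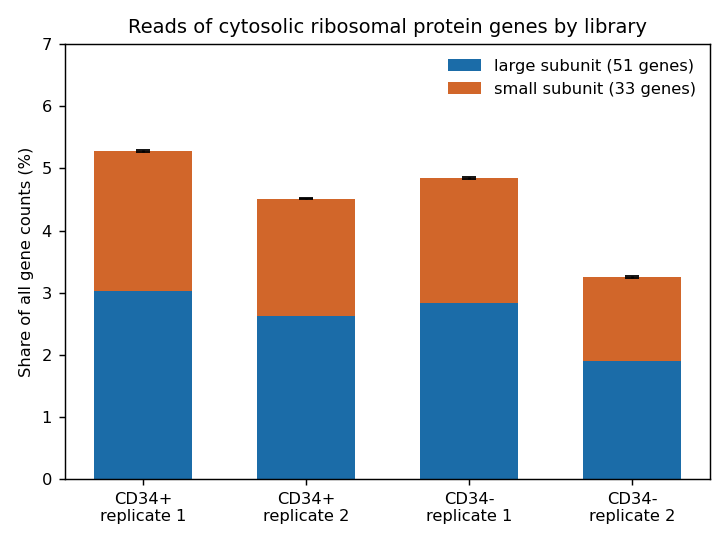
Share of all gene counts (%, vertical axis, from 0) held by large-subunit and small-subunit genes, stacked, in each of the 4 libraries; black bars are Wilson 95% intervals of the total, which cover counting error only. The CD34+ libraries reached 5.28% and 4.51%, and the CD34- libraries 4.85% and 3.25%.

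The subunits kept nearly the same balance in all 4 libraries. Large-subunit genes held 3.02% and 2.63% of the counts in the CD34+ libraries, against 2.83% and 1.90% in the CD34- libraries. Small-subunit genes held 2.26% and 1.89% in the CD34+ libraries, against 2.02% and 1.35% in the CD34- libraries. The ratio of large-subunit to small-subunit counts was 1.34 and 1.39 in CD34+ cells, against 1.40 and 1.41 in CD34- cells. The CD34+ ratios were both below the CD34- ratios, by a mean of only 0.04 on the log2 scale, which is a ratio within a library and needs no scaling between libraries. The groups overlapped in the ratio of summed RPKM (1.23 and 1.28 in CD34+ cells, against 1.28 and 1.29 in CD34- cells) and of summed FPKM (1.27 and 1.30 in CD34+ cells, against 1.30 and 1.30 in CD34- cells).

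The library differences ran through most of the family and not through a few abundant genes. Of the 84 genes, 78 had enough counts to be tested (46 large-subunit and 32 small-subunit). CD34- replicate 2 had the lowest CPM (counts scaled to the column total) for 70 of these 78 genes, or 89.7%, against 30.0% of all 13875 genes tested. CD34+ replicate 1 had the highest CPM for 52 of the 78, or 66.7%, against 28.9% of all genes tested, and CD34- replicate 1 had the highest for another 23. The libraries within a group differed from each other as well. The median log2 ratio of replicate 1 over replicate 2 was 0.29 in CD34+ cells (-0.04 over all genes tested) and 0.60 in CD34- cells (0.15 over all genes tested).

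**Figure D2:**
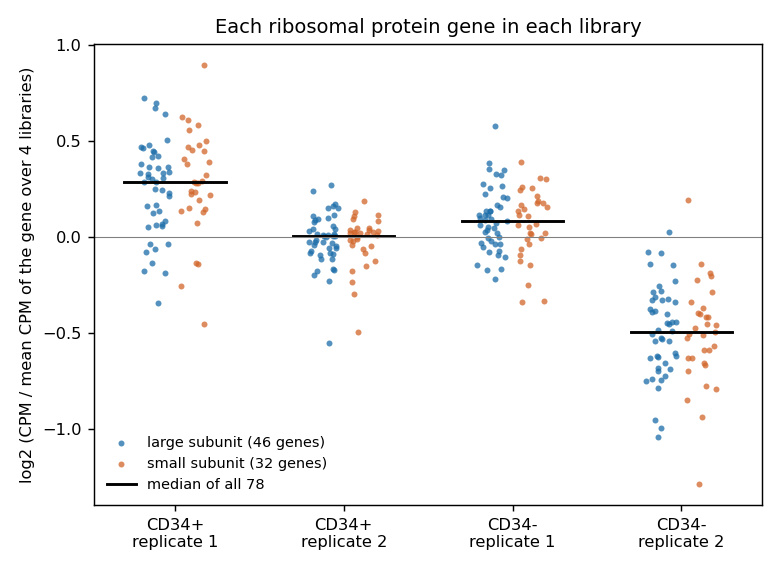
log2 of the CPM of each tested ribosomal protein gene over its own mean across the 4 libraries (vertical axis), by library, with large-subunit genes (46) and small-subunit genes (32) as separate columns of points and the median of all 78 as a black line. The genes of CD34- replicate 2 lie lowest as a group, and those of CD34- replicate 1 overlap both CD34+ libraries.

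No ribosomal protein gene passed the test between CD34+ and CD34- cells. In edgeR's quasi-likelihood test with Benjamini-Hochberg adjustment over all genes, 0 of 78 were called in either direction (0% of all 13875 genes were called), and the smallest adjusted p was 0.285. DESeq2, edgeR's exact test and limma voom also called 0 of the 78, although DESeq2 called 2.85% of all genes higher and 1.3% lower and the exact test 3.29% higher and 1.46% lower. With replicate number as a block, edgeR called 0 of the 78, against 0.281% of all genes higher and 0.166% lower. At an unadjusted p under 0.05 there were 5 ribosomal protein genes higher in CD34+ cells and 0 lower, which is 6.41% of the 78 against a background of 9.81% of all genes higher and 6.65% lower. Those were Rps13, Rpl36, Rpl37a, Rps21 and Rplp2, with unadjusted p from 0.0392 to 0.05. The number higher at that level was 0 without CD34+ replicate 1 (5.55% of all genes tested), 8 without CD34+ replicate 2 (12.3% of all), 5 without CD34- replicate 1 (5.24% of all) and 0 without CD34- replicate 2 (6.51% of all). With the block it was 18 higher and 0 lower, against 12.5% of all genes higher.

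The fold changes were mostly small and positive. With counts scaled by TMM (the trimmed mean of M values, a correction for library composition), the log2 fold change, CD34+ over CD34-, ranged from -0.38 to 1.18 with a median of 0.38, against a median of -0.02 over all genes tested. It was positive for 66 of the 78 (84.6%), against 48.7% of all genes tested. The large-subunit median was 0.32 (39 of 46 positive) and the small-subunit median 0.39 (27 of 32 positive). The CD34+ libraries were both above both CD34- libraries for 27 genes (34.6% of the 78, against 23.4% of all genes tested) and both below for 3 genes (3.85%, against 26.6%), namely Rpl4, Rpl7l1 and Rps27l. The median was within the spread between libraries, as it was 0.16 without CD34- replicate 2 and 0.18 without CD34+ replicate 1. On the authors' RPKM scale (reads per gene length and the authors' scaling total, as log2 with 1 added), all genes had a median of -0.31. The family's median there was -0.03 with 34 of 78 positive, which is 0.28 above that of all genes. The authors' scaling totals are not the column sums. Those sums were 56.0 and 72.7% of the totals for CD34+ cells, against 81.7 and 86.2% for CD34- cells. RPKM therefore sets CD34+ values lower against CD34- values than CPM does, for every gene alike. Without overlap on the RPKM scale were 4 of the 78 higher in CD34+ cells (12.2% of all genes tested) and 12 lower (46.6% of all). On the FPKM scale these were 8 higher (10.6% of all) and 21 lower (46.6% of all), and in TMM-scaled CPM 34 higher (24.9% of all) and 4 lower (26.5% of all).

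**Figure D3:**
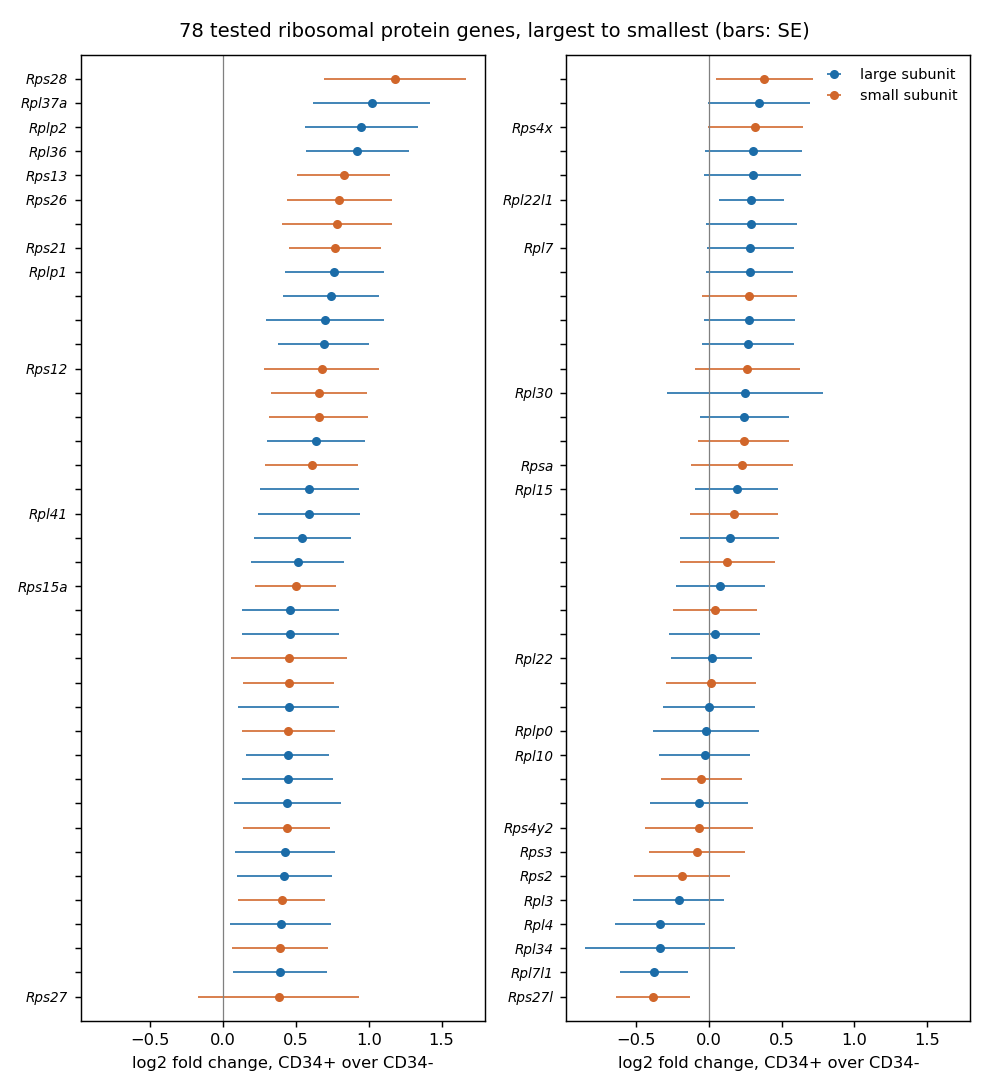
log2 fold change, CD34+ over CD34- (horizontal axis), of the 78 tested ribosomal protein genes from the largest (top left) to the smallest (bottom right); bars are standard errors of the edgeR fit, colour gives the subunit, and the genes named in the text are labelled. With counts scaled by TMM, 66 of 78 are above 0 and none passed the adjusted threshold; on the authors' RPKM scale the median was -0.03 and 34 of 78 were above 0.

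By mean CPM over the 4 libraries the family was led by Rplp0 and Rps2, with Rplp1 and Rpsa close together after them. Rplp0, the base of the stalk through which the large subunit engages translation factors, had 1641 and 1717 CPM in CD34+ cells, against 2184 and 1296 CPM in CD34- cells. Rplp1, which forms the outer stalk with Rplp2, had 1614 and 1510 CPM in CD34+ cells, against 1134 and 748 CPM in CD34- cells. The Rplp0 libraries of CD34+ cells lay inside the range of CD34- cells (log2 fold change -0.02, SE 0.36), and both Rplp1 libraries of CD34+ cells lay above (0.76, SE 0.34, edgeR adjusted p = 0.327). Rplp2 had 486 and 294 CPM in CD34+ cells, against 265 and 150 CPM in CD34- cells, and also did not overlap (0.95, SE 0.39, edgeR adjusted p = 0.304). Whether the fold changes of the stalk genes differ from each other was not tested.

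Among the other large-subunit genes with many reads, Rpl10, an X-linked protein that joins the subunit late in its assembly, had 1032 and 1261 CPM in CD34+ cells, against 1265 and 1106 CPM in CD34- cells. Its groups overlapped, with a log2 fold change of -0.03 (SE 0.31). Rpl4, which lines the exit tunnel for the new protein, had 816 and 810 CPM in CD34+ cells, against 1214 and 878 CPM in CD34- cells (-0.34, SE 0.31, edgeR adjusted p = 0.603). Rpl3, which reaches towards the peptidyl transferase centre, had 872 and 886 CPM in CD34+ cells, against 1202 and 868 CPM in CD34- cells (-0.21, SE 0.31). For both Rpl4 and Rpl3, CD34- replicate 1 stood above the other 3 libraries, which lay within a narrow range.

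The largest fold changes of the large subunit beside Rplp2 were those of Rpl37a and Rpl36. Rpl37a, a zinc-binding protein of the large subunit, had 741 and 448 CPM in CD34+ cells, against 386 and 218 CPM in CD34- cells (1.02, SE 0.40, edgeR adjusted p = 0.291). Rpl36 had 264 and 174 CPM in CD34+ cells, against 151 and 87.3 CPM in CD34- cells (0.92, SE 0.36, edgeR adjusted p = 0.289). In both genes the groups did not overlap, and within each group replicate 1 was well above replicate 2.

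In the small subunit, Rps2, which lies at the entry of the mRNA channel, had 1197 and 1451 CPM in CD34+ cells, against 1765 and 1295 CPM in CD34- cells (-0.18, SE 0.33). Rps3, at the same entry and also described as a DNA repair endonuclease, had 911 and 672 CPM in CD34+ cells, against 986 and 724 CPM in CD34- cells (-0.08, SE 0.33). Both genes overlapped between the groups. Rpsa, also known as the laminin receptor, had 1389 and 1273 CPM in CD34+ cells, against 1447 and 881 CPM in CD34- cells (0.23, SE 0.35). Rps4x, encoded on the X chromosome, had 1361 and 1206 CPM in CD34+ cells, against 1224 and 875 CPM in CD34- cells (0.32, SE 0.33). For these 2 genes CD34- replicate 2 alone stood apart. The sign of the fold change of Rplp0, Rpl10, Rps3, Rpsa and Rps4x turned under at least 1 other scaling or set of libraries.

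Rps12, also of the small subunit, had 1483 and 1066 CPM in CD34+ cells, against 1059 and 583 CPM in CD34- cells (0.68, SE 0.39, edgeR adjusted p = 0.425). The Rps12 groups were separated only by the narrow step between CD34+ replicate 2 and CD34- replicate 1. Rps28, which sits beside the mRNA exit channel, had the largest fold change of the family, with 657 and 312 CPM in CD34+ cells, against 297 and 145 CPM in CD34- cells (1.18, SE 0.49, edgeR adjusted p = 0.305). Here again CD34+ replicate 2 and CD34- replicate 1 were close together, and each replicate 1 was more than its replicate 2 by a wide margin. Rps26, a neighbour of Rps28 at the exit channel, had 483 and 305 CPM in CD34+ cells, against 284 and 181 CPM in CD34- cells (0.80, SE 0.36). Rps13 had 495 and 330 CPM in CD34+ cells, against 258 and 216 CPM in CD34- cells (0.83, SE 0.32), and the smallest adjusted p of the family (0.285 in edgeR).

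Levels between genes were compared only per length, on the authors' RPKM scale unless FPKM is named. Rplp1 led with a mean over the 4 libraries of 1909 ± 400 RPKM (SD, n = 4), ahead of Rps12 with 1435 ± 319 and Rpl41, the smallest ribosomal protein, with 1401 ± 242. The next were Rpl10 with 1095 ± 252 and Rps2 with 1072 ± 317. Rps12 and Rpl41 did not differ beyond their spread, and neither did Rpl10 and Rps2. Rplp0, first by read number, was at 932 ± 272 RPKM. The order of the genes was not kept on the FPKM scale. Rplp2, at only 472 ± 133 RPKM, had 2663 and 2407 FPKM in CD34+ cells, against 2388 and 1667 FPKM in CD34- cells. It thus stood above Rplp0, with 796 and 1173 FPKM in CD34+ cells, against 1708 and 1220 FPKM in CD34- cells. Within Rplp1, the RPKM was 1933 and 2346 in CD34+ cells, against 1980 and 1377 in CD34- cells, so that the groups overlapped on that scale and not in CPM.

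The fold change of a ribosomal protein gene went with its length. The lengths the authors used, recovered from the ratio of their counts to their RPKM, ran from 327 bases (Rps28) to 5134 bases (Rps15a) with a median of 706.5 over the 78 tested genes, against a median of 2864 over the other tested genes. The median log2 fold change was 0.69 for the 16 genes of up to 500 bases, 0.39 for the next 28 of up to 750 bases and 0.30 for the next 17 of up to 1000 bases. It was 0.04 for the 9 genes above that and up to 1500 bases, and 0.11 for the 8 longer ones. The exception among the shortest was Rps27l, the only 1 of the 16 with a negative value. Spearman's rho between log2 fold change and length was -0.59 across the 78 genes (-0.62 without Rps15a), given as a description because the genes share the same 4 libraries.

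Other short genes had the same tendency. The other tested genes had medians of 0.50 (128 genes of up to 500 bases), 0.32 (the next 303 of up to 750), 0.14 (the next 494 of up to 1000), 0.04 (the next 1374 of up to 1500) and -0.06 (11498 longer ones). Across all 13797 of them, most of which are long, rho was -0.0029. The differences between replicates of a group also went with length within the family, with rho of -0.46 for replicate 1 over replicate 2 of CD34+ cells and -0.37 for that of CD34- cells. For family members of up to 500 bases, the median log2 ratio of replicate 1 over replicate 2 was 0.48 in CD34+ cells and 0.67 in CD34- cells. Without CD34- replicate 2 the medians by length were 0.43, 0.16, 0.14, -0.17 and -0.08, and without CD34- replicate 1 they were 0.89, 0.65, 0.47, 0.29 and 0.23, from the shortest to the longest class. The fold changes and the differences between replicates both went with length, and the part of either in the other was not tested. The length classes were chosen after the values were seen.

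**Figure D4:**
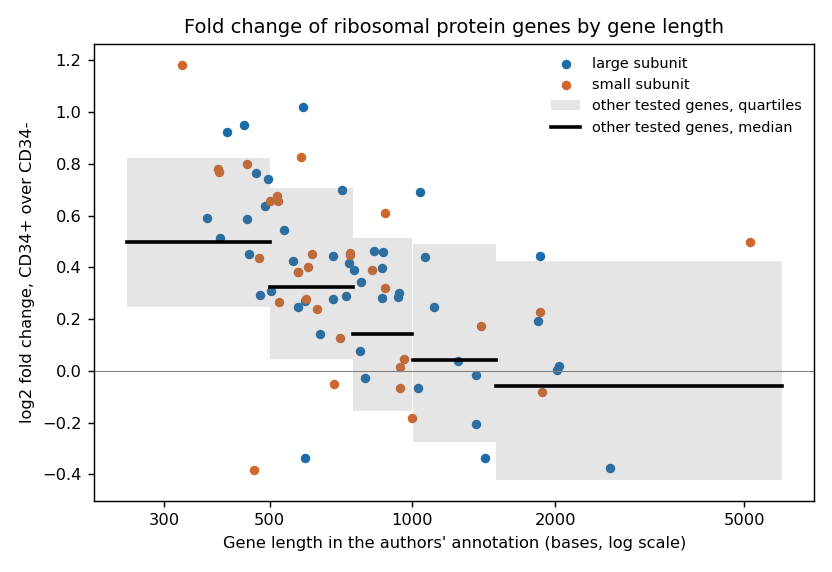
log2 fold change, CD34+ over CD34- (vertical axis, counts scaled by TMM), of the 78 tested ribosomal protein genes against gene length in the authors' annotation (bases, log scale); grey boxes and black lines give the quartiles and the median of the other tested genes in 5 length classes, the last open-ended. Points and lines both lie higher for short genes, with medians of 0.69 and 0.50 at up to 500 bases and of 0.11 and -0.06 above 1500 bases; on the authors' RPKM scale the family's overall median was -0.03.

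Several genes of the family held almost no counts although the second deposited table gave them fragments. Rpl34 had 47 and 40 counts in CD34+ cells, against 85 and 48 counts in CD34- cells, while its estimated fragments were 9392 and 6310 in CD34+ cells, against 5229 and 4461 in CD34- cells. Its counts summed to 0.87% of its fragments. Rps27 had 31 and 25 counts in CD34+ cells, against 32 and 20 in CD34- cells, and 131 and 125 estimated fragments in CD34+ cells, against 149 and 1420 in CD34- cells. Rpl30 had 13 and 14 counts in CD34+ cells, and the same 13 and 14 in CD34- cells. Rpl26 and Rps23, which every ribosome holds, were at 0 counts in all 4 libraries, where 3 counts would be 0.205 to 0.291 CPM. Over the 76 genes that reached 5 CPM in some library, counts were a median of 55.5% of estimated fragments, with a range of 0.87 to 157%. The values of the few genes with hardly any counts therefore describe the counting of these genes as much as their RNA. Many ribosomal protein genes have near-identical processed pseudogenes, which a counter can treat as ambiguous, and the part of such copies in these counts was not tested. The fold change of Rpl34 was -0.34 (SE 0.51) from counts, whereas the deposited FPKM were 732 and 497 in CD34+ cells, against 475 and 397 in CD34- cells, without overlap. Its pseudogene Rpl34-ps1 went the other way, with 237 and 436 FPKM in CD34+ cells, against 621 and 472 in CD34- cells. How fragments were divided between the gene and the pseudogene was not tested.

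**Figure D5:**
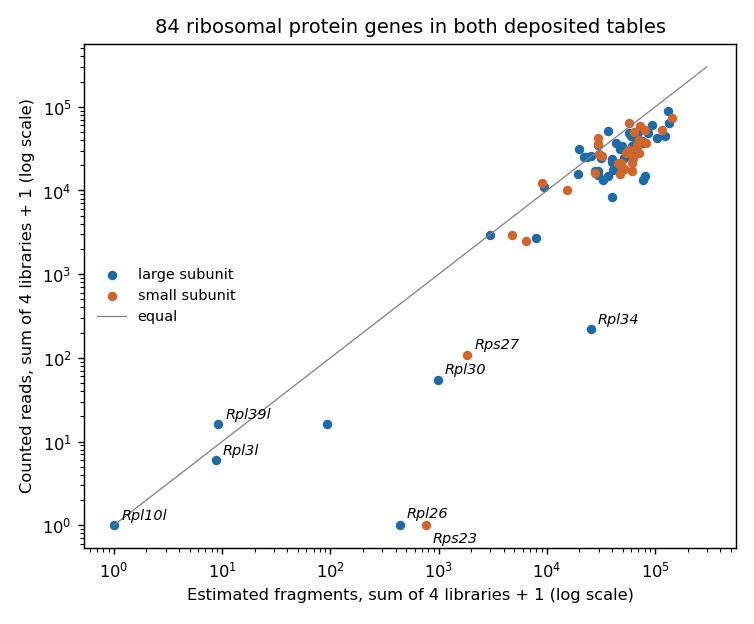
Counted reads against estimated fragments of the 84 ribosomal protein genes, each summed over the 4 libraries with 1 added (both axes log scale); the line marks equality and colour gives the subunit. Most genes lie near or below the line, while Rpl34, Rpl30, Rps27, Rpl26 and Rps23 lie far below it.

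The expressed paralogs of the family were read at 35.2 to 70.2 CPM. Rps27l, a paralog of Rps27 that p53 can induce, had 41.3 and 56.0 CPM in CD34+ cells, against 63.9 and 64.4 CPM in CD34- cells (-0.38, SE 0.25, edgeR adjusted p = 0.476). Rpl7l1, a paralog of Rpl7, had 44.2 and 52.5 CPM in CD34+ cells, against 70.2 and 57.2 CPM in CD34- cells (-0.37, SE 0.23, edgeR adjusted p = 0.453). In both genes the CD34+ libraries lay below the CD34- libraries, unlike Rpl7 itself, which had 974 and 916 CPM in CD34+ cells, against 882 and 699 CPM in CD34- cells. The difference between paralog and standard gene was not tested. Per length, Rpl7l1 averaged 16.3 ± 5.43 RPKM and Rpl7 679 ± 81.5 RPKM over the 4 libraries (SD, n = 4).

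Rpl22l1, the paralog of Rpl22, had 59.7 and 56.9 CPM in CD34+ cells, against 52.0 and 44.7 CPM in CD34- cells (0.29, SE 0.22), and Rpl22 had 236 and 192 CPM in CD34+ cells, against 248 and 183 CPM in CD34- cells. In RPKM the pair did not differ beyond the spread, with 81.7 ± 8.48 RPKM for Rpl22l1 and 77.5 ± 15.5 RPKM for Rpl22 (SD, n = 4). In FPKM Rpl22l1 was higher in every library, at 196 and 232 in CD34+ cells and 205 and 202 in CD34- cells. Rpl22 had 46.6 and 52.2 FPKM in CD34+ cells and 74.4 and 57.7 FPKM in CD34- cells. The summed counts were 34.2% of the estimated fragments for Rpl22l1 and 118% for Rpl22. Rps4y2, now named Rps4l, had 60.5 and 35.2 CPM in CD34+ cells, against 65.1 and 37.9 CPM in CD34- cells (-0.07, SE 0.37), with both replicate 1 libraries above both replicate 2 libraries. The sign of Rpl22l1 and Rps4y2 turned under other scalings. The tissue-restricted forms were almost unread. Rpl3l, the form of heart and skeletal muscle, had at most 3 counts in any library, Rpl39l, a testis form, at most 6, and Rpl10l, another testis form, 0.

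The ribosomal proteins whose symbols fall outside the family's naming behaved within the same range. Fau, a ubiquitin-like protein fused to Rps30, had 566 and 430 CPM in CD34+ cells, against 441 and 255 CPM in CD34- cells (0.56, SE 0.35). In Fau the groups overlapped. Rpl36al, a near copy of Rpl36a, had 170 and 107 CPM in CD34+ cells, against 95.7 and 80.9 CPM in CD34- cells (0.68, SE 0.31). Gnb2l1, the scaffold protein RACK1 of the small subunit, had 1139 and 1202 CPM in CD34+ cells, against 1563 and 988 CPM in CD34- cells (-0.09, SE 0.34). None of these genes passed the edgeR test, and the sign of Fau and Gnb2l1 turned under at least 1 alternative.

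Other genes of the TOP class mostly had small negative fold changes. Of 16 tested TOP messages that encode no ribosomal protein, such as elongation and initiation factors, 4 had a positive and 12 a negative log2 fold change, with a median of -0.21. The fold changes ranged from -1.56 to 0.21. These messages were longer, with a median of 1876 bases. Eif4b, a helper of the initiation helicase, had 137 and 143 CPM in CD34+ cells, against 231 and 166 CPM in CD34- cells (-0.48, SE 0.26), and Eif3e, a subunit of initiation factor 3, had 109 and 149 CPM in CD34+ cells, against 174 and 158 CPM in CD34- cells (-0.35, SE 0.26). Both had lower values in both CD34+ libraries, and neither passed the test (edgeR adjusted p = 0.400 and 0.526). Over the 16 messages, 0 were higher and 6 lower without overlap, against 23.4 and 26.6% of all genes tested. Whether the 2 lists differ was not tested.

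The machinery that makes ribosomes showed no call in either direction. Of 32 assembly factors 18 were positive, with a median log2 fold change of 0.08. Nop2, an rRNA methyltransferase of the large subunit's precursor, had 50.2 and 42.1 CPM in CD34+ cells, against 24.4 and 24.7 CPM in CD34- cells (0.93, SE 0.25, edgeR adjusted p = 0.210). Nop14, of the small subunit's processome, had 67.0 and 49.0 CPM in CD34+ cells, against 37.7 and 31.1 CPM in CD34- cells (0.78, SE 0.27, edgeR adjusted p = 0.257). Of 13 RNA polymerase I genes 7 were positive, with a median of 0.03. Rrn3, the initiation factor of that polymerase, had 22.1 and 23.7 CPM in CD34+ cells, against 40.2 and 34.2 CPM in CD34- cells (-0.68, SE 0.23, edgeR adjusted p = 0.260). Polr1d, a subunit shared with RNA polymerase III, had 63.3 and 67.0 CPM in CD34+ cells, against 94.8 and 82.1 CPM in CD34- cells (-0.42, SE 0.23). The groups of these 4 genes did not overlap. Over the whole lists, the groups did not overlap for 5 of the 32 assembly factors higher and 4 lower in CD34+ cells. For the 13 polymerase genes it was 1 higher and 2 lower. Over all genes tested, 23.4% were higher and 26.6% lower without overlap.

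Among 16 genes of mTORC1 and Myc control 7 were positive, with a median of -0.02. Myc, a transcription factor that drives ribosome production, had 238 and 236 CPM in CD34+ cells, against 88.6 and 137 CPM in CD34- cells (1.08, SE 0.33, edgeR adjusted p = 0.230). Max, its binding partner, had 34.0 and 39.7 CPM in CD34+ cells, against 62.2 and 60.1 CPM in CD34- cells (-0.71, SE 0.23, edgeR adjusted p = 0.243). The groups of neither gene overlapped, Myc being higher and Max lower in the CD34+ libraries. These genes were named for the smallest edgeR p of the list. Over the 16 genes, 2 were higher and 3 lower without overlap, against 23.4 and 26.6% of all genes tested. Of 12 proliferation genes 4 were positive, with a median of -0.13. Tyms, which makes thymidylate, had 31.8 and 30.6 CPM in CD34+ cells, against 22.5 and 16.0 CPM in CD34- cells (0.72, SE 0.26), and Rrm2, a subunit of ribonucleotide reductase, had 12.5 and 18.3 CPM in CD34+ cells, against 30.0 and 16.7 CPM in CD34- cells (-0.56, SE 0.36).

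The mitochondrial ribosome, which is built from a separate set of nuclear genes, stood near the median of all genes. Of its 76 tested genes 42 were positive, with a median log2 fold change of 0.05, and 0 were called by edgeR. At an unadjusted edgeR p under 0.05, 9.81% of all genes tested were higher and 6.65% lower. Of the 76 genes, 0 were higher and 2 lower at that level. Those 2 were Mrpl44, with 2.71 and 3.52 CPM in CD34+ cells, against 11.4 and 7.11 CPM in CD34- cells (-1.54, SE 0.43, edgeR adjusted p = 0.217), and Mrps2, with 6.68 and 9.60 CPM in CD34+ cells, against 18.5 and 12.2 CPM in CD34- cells (-0.88, SE 0.36, edgeR adjusted p = 0.301). The median length of the 76 genes was 1047 bases.

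The sorted markers and markers of other cells also differed between libraries. Library totals ran from 10322354 to 14633561 counts. Cd34 had 143 and 293 CPM in CD34+ cells, against 18.3 and 23.9 CPM in CD34- cells (3.37, SE 0.43, edgeR adjusted p = 0.141, but 0.015 with the replicate block, 5.284e-12 with DESeq2, 9.66e-09 with the exact test, 0.001257 with no filter and 0.03166 by limma on log2 RPKM + 0.1), and Fap had 79.0 and 39.8 CPM in CD34+ cells, against 142 and 136 CPM in CD34- cells (-1.20, SE 0.37, edgeR adjusted p = 0.230). Summed endothelial markers (10 of 10 in the table, none near 0) were at 123 and 90.2 CPM in CD34+ cells, against 49.2 and 50.5 CPM in CD34- cells. Summed pericyte markers (7 of 7) were at 336 and 281 CPM in CD34+ cells, against 452 and 532 CPM in CD34- cells. The endothelial sums were thus higher, and the pericyte sums lower, in both CD34+ libraries than in either CD34- library. Single markers did not all follow the sums. Of the 10 endothelial markers, 8 had a positive and 2 a negative log2 fold change. Of the 7 pericyte markers, 2 had a positive and 5 a negative one, against 48.7% positive over all genes tested. Myeloid markers (9 of 10) summed to 246 and 162 CPM in CD34+ cells, against 169 and 121 CPM in CD34- cells, and mesothelial markers (8 of 8) to 618 and 439 CPM in CD34+ cells, against 512 and 301 CPM in CD34- cells. Epithelial and acinar markers (8 of 8, Prss1 at no more than 3 counts) summed to 411 and 257 CPM in CD34+ cells, against 411 and 199 CPM in CD34- cells. Of the tested markers, 8 of 9 myeloid, 6 of 8 mesothelial and 4 of 6 epithelial and acinar ones had a positive log2 fold change. The medians were 0.85, 0.84 and 0.36. Without overlap, 3 myeloid markers were higher and 1 lower in CD34+ cells. For the mesothelial markers it was 4 and 0, and for the epithelial and acinar ones 0 and 0, against 23.4 and 26.6% of all genes tested. In these last 3 lists CD34- replicate 2 was the lowest library, as it was for the ribosomal protein genes. That library also had the lowest summed CPM of the assembly factors, RNA polymerase I, proliferation and mitochondrial ribosomal protein genes. It was not the lowest for the other TOP messages or for the mTORC1 and Myc list. Lymphocyte markers (8 of 8) summed to 22.3 and 4.03 CPM in CD34+ cells, against 1.74 and 1.03 CPM in CD34- cells, and erythroid markers (4 of 4, Hbb-b1 and Hba-a1 at no more than 3 counts) to at most 1.84 CPM. The part of these cells in the ribosomal protein values was not tested.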

How the data were processed

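Per the labels' protocols, a Purelink kit gave the RNA of the sorted cells, and MessageAmp, which copies linearly from the poly(A) tail, amplified it. Bowtie2, TopHat2, HTSeq, edgeR and the mouse build mm9 are named in the submitters' processing notes, without versions. The annotation or strand setting was not given in the sources used here. Raw counts and RPKM (scaled to gene length and a library total) were deposited by the authors for 22609 genes. The authors also deposited estimated counts of fragments with their FPKM for 22558 genes, and the estimated counts were rounded here. Each library has its own column. Columns of values that matched no sample, 14 in all per table, were not used. With the strand unknown, reads of overlapping or antisense genes may be mixed, and near-identical copies make the counts of single ribosomal protein genes uncertain. The authors' RPKM use scaling totals other than the column sums, the column sums being 56.0 and 72.7% of them for CD34+ cells, against 81.7 and 86.2% for CD34- cells.

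Counts were tested with edgeR 4.0.16 (quasi-likelihood, TMM scaling, filterByExpr, two-sided, residual df of 2, threshold 0.05 after Benjamini-Hochberg adjustment over 13875 genes), in R 4.3.3, on all 4 libraries with group as the only term. DESeq2 1.42.0, limma 3.58.1 (voom, and log2 of RPKM or FPKM with a pseudocount of 1 or 0.1), other scalings, filters, a replicate block and leaving out each library were the alternatives. The script was tested on simulated data. CPM are by column total. Named are, leaving out items that are not reported here, the 8 genes with most reads, the 6 with the largest log2 fold change in each direction from a mean of 5 CPM, paralogs, ribosomal proteins outside the naming pattern and 2 genes per other list; Rps21, Rpl41, Rps15a, Rpl15, Rpl7, Rpl22 and the genes with hardly any counts were chosen after their values were seen. Members and lists were chosen with earlier results of these data known. Gene length was recovered from counts over RPKM, which gave whole bases within 0.01 for 100% of values. Sequences are RefSeq promoter entries on GRCm38.p6, matched by symbol or synonym, and they are not on the build of the counts.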

Additional observations from a re-analysis of the deposited data

Results flagged for a closer look

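Some ribosomal protein genes and pseudogenes had 0 counts in every library but were given estimated fragments. The main edgeR test between the groups did not use those fragments. The lowest estimate over the 4 libraries was 79.0 fragments for Rpl26 and 59.4 for Rps23. It was 664 for Rplp2-ps1, a pseudogene of Rplp2, and 2110 for Rpl34-ps1, a pseudogene of Rpl34. Rplp2-ps1 had 1514 and 1364 estimated fragments in CD34+ cells, against 934 and 664 in CD34- cells, and Rpl34-ps1 had 2113 and 3843 in CD34+ cells, against 4749 and 3681 in CD34- cells.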

How the results depend on the processing

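With 2 libraries a group, only large and steady differences can pass. No ribosomal protein gene was called under any of the 18 alternatives. The family's median log2 fold change of 0.38 was 0.16 to 0.57 when each library was left out. It was -0.029 on log2(RPKM + 1), -0.0735 on log2(FPKM + 1) and -0.0293 on log2(RPKM + 0.1), where all genes had medians of -0.31, -0.31 and -0.42. Among all genes, 0 were called higher and 0 lower. The counts were 396 and 180 with DESeq2, 457 and 203 with the exact test, 194 and 137 with no filter, 5 and 7 on RPKM + 1, and 32 and 66 on RPKM + 0.1. Scaling by library size, upper quartile scaling and a filter of 1 CPM each gave 2 higher and 0 lower. The replicate block gave 39 and 23, with a smallest adjusted p of 0.0925 among the ribosomal protein genes in edgeR. The labels do not say whether libraries of the same number share animals, so the numbers were not taken as pairs, although same-numbered deviations correlated at 0.234 over 13824 genes and 0.467 over the 78. The log2 ratio of shares was 0.02 to 0.59 over the left-out libraries, and the large-to-small balance -0.07 to -0.01. Of the 78, those whose groups did not overlap numbered 4 higher and 12 lower in RPKM (12.2 and 46.6% of all genes), 8 and 21 in FPKM (10.6 and 46.6%) and 34 and 4 in TMM-scaled CPM (24.9 and 26.5%). Signs turned for Rplp0 (0.0089 with DESeq2 and with RLE scaling, 0.015 with voom, 0.0526 with upper quartile, 0.0156 with the replicate block, -0.2912 to 0.2873 over the left-out libraries), Rpsa (-0.0322 to 0.5091 over the left-out libraries, -0.1592, -0.1816 and -0.1594 on RPKM + 1, FPKM + 1 and RPKM + 0.1), Rps4x (-0.0879, -0.054 and -0.088 on the same scales) and Rpl10 (0.0522 with upper quartile, -0.1816 to 0.0825 over the left-out libraries). They also turned for Rps3 (-0.349 to 0.1146 over the left-out libraries, 0.0182 on estimated fragments), Rpl22l1 (-0.1213 on RPKM + 1, -0.1227 on RPKM + 0.1), Rps4y2 (0.002 with upper quartile, -0.5404 to 0.2649 over the left-out libraries), Fau (-0.0385 on FPKM + 1) and Gnb2l1 (-0.3296 to 0.1574 over the left-out libraries). On the RPKM scale, the authors' scaling totals set CD34+ values lower against CD34- values than CPM does, for every gene. The cause of the other turns was not tested.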
